A study of Mus musculus with 6 samples.

Results

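A set of 10 genes of MHC class I antigen presentation was followed in the lung cells of mice that had received C1q into the airway. They were taken by name from a table of 26890 genes: B2m, the class I heavy chain genes H2-K1, H2-D1, H2-Q7 and H2-T23, the peptide transporter and tapasin genes Tap1, Tap2 and Tapbp, and the immunoproteasome subunit genes Psmb8 and Psmb9. All 10 were in the table and all 10 passed the filter on low counts. The mice were C57BL/6 wild type and were given saline (n = 3 libraries) or C1q at 20 µg per mouse by the intratracheal route, and lungs were taken at day 3. Lungs were digested, cells were collected from the middle layer of a Percoll gradient, and 5′ ends of poly(A) transcripts were sequenced. The treatment label sets the saline group apart, while the protocol text of every sample describes C1q only. The labels do not say that each library is a separate animal, so p-values measure the spread between these libraries.

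Class I molecules show short peptides from inside a cell to CD8 T cells and to natural killer cell receptors, and nearly all nucleated cells carry them. Peptides are cut by the proteasome, whose catalytic subunits are replaced by inducible ones under interferon-gamma, pumped into the endoplasmic reticulum by the TAP transporter, and loaded with the help of tapasin onto a heavy chain bound to beta-2-microglobulin. In the lung, endothelium, epithelium and leukocytes all contribute class I transcript. In these bulk samples fewer cells of a type and less RNA per cell cannot be told apart.

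The class I genes sit close together in the genome. On GRCm38, 9 of the 10 lie in the MHC on chromosome 17, and B2m lies on chromosome 2 from 122147686 to 122153083. Psmb9, Tap1, Psmb8 and Tap2 fill a stretch of 34.3 kb from 34181987 to 34216321 on chromosome 17. Psmb9 and Tap1 are read in opposite directions from start sites 226 bases apart in RefSeq, and their GENCODE models overlap by 212 bases. The sources used here do not state strand handling, so counts in that overlap cannot be told apart between these genes. H2-K1 lies on chromosome 17 from 33996017 to 34000347, Tapbp from 33915899 to 33929292, H2-D1 from 35262730 to 35267499, H2-Q7 from 35439155 to 35443773 and H2-T23 from 36029773 to 36032855, all annotated as protein-coding.

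Upstream sequences are shown because class I genes are known for a common arrangement of regulatory motifs before their start sites, and the sequences let that arrangement be seen in these genes. RefSeq upstream windows of 250 bases (GRCm38.p6) were found for 9 of the 10 genes, with Tap2 missing. Capitals mark matches on either strand to 4 motifs: the NF-kappa-B consensus, GAANNGAAA, TGACG and CCAAT. GAANNGAAA is a core bound by interferon regulatory factors. TGACG is the CRE core found in X2 boxes, and CCAAT (the CCAAT box) is found in Y boxes. A match to such short letters does not show that an X2 or Y box is present. Each is read 5′ to 3′ on the gene's strand and ends at the base before the start site. H2-K1 covers chr17:34000348-34000597 (minus strand), H2-D1 chr17:35262844-35263093 (plus), H2-Q7 chr17:35438905-35439154 (plus), B2m chr2:122147437-122147686 (plus) and Tap1 chr17:34187306-34187555 (plus).
H2-K1: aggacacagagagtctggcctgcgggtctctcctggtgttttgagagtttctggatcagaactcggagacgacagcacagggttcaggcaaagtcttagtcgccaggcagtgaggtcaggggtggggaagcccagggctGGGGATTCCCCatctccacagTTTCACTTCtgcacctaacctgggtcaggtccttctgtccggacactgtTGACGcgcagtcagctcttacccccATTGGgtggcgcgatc
H2-D1: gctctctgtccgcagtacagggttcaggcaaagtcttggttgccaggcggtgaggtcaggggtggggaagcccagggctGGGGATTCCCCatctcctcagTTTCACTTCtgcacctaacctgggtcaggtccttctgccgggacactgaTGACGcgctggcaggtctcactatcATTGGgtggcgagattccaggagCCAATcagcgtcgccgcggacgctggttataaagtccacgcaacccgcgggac
H2-Q7: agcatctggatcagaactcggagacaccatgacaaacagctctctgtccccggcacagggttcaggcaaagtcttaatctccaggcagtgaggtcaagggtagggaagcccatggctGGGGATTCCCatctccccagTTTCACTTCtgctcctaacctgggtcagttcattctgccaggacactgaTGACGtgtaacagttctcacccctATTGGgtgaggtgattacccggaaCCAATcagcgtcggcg
B2m: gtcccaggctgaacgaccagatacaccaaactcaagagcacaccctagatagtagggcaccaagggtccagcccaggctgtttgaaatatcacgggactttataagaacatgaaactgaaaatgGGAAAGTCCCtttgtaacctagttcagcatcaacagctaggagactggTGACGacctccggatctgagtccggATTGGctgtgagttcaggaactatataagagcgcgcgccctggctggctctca
Tap1: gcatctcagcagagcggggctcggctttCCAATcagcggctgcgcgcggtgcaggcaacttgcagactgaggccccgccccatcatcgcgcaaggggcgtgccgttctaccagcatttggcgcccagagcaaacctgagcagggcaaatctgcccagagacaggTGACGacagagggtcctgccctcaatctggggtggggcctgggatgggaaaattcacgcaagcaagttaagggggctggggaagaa

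The NF-kappa-B consensus was matched upstream of 4 of 9 genes, B2m, H2-K1, H2-D1 and H2-Q7, and in 7.25% of the 32851 windows of this length in the table. The interferon regulatory factor core, in the form GAANNGAAA only, was upstream of 3 of 9, H2-K1, H2-D1 and H2-Q7, against 6.31% of all windows. A form with a wider gap between the same parts was not searched. Such letters stand unmarked in the B2m window, just before its NF-kappa-B match, and in the H2-T23 window on the other strand. The count of 3 therefore does not show that the other windows lack a core of this kind. In H2-D1 the 4 motifs, in the order named, first began at -171, -150, -101 and -76 from the start site, and in H2-Q7 in the same order at -133, -113, -64 and -40. H2-K1 kept that order at -111, -90, -41 and -16. These 3 are related heavy chain genes whose windows share long runs of letters, so their matches are not separate cases. The CRE core was upstream of 6 of 9 genes, against 17.8% of all windows, and the CCAAT box of 8 of 9, against 33.8%. The Tap1 and Psmb9 windows overlap on opposite strands, and their CRE core and CCAAT box matches are the same bases, so each is counted for both genes. In H2-K1 and H2-D1 the NF-kappa-B consensus matched at overlapping positions on both strands. Tap1 held only the CCAAT box, at -222, and the CRE core, at -86, the reverse of the order in H2-D1, H2-Q7 and H2-K1. H2-T23 and Tapbp held CCAAT matches only, in Tapbp at -248 and -165. No motif was matched in the Psmb8 window. A match describes letters only, and its absence says nothing about a factor.

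After C1q, 0 of the 10 genes rose and 0 fell. In edgeR's quasi-likelihood test with Benjamini-Hochberg adjustment over 13473 genes, adjusted p-values ran from 0.635 to 0.984. Among all genes tested 0.0297% passed, all higher, and 0% passed in the lower direction. That balance differed between settings: with no filter on low counts 158 genes were called higher and 215 lower. DESeq2, also run on all 26890 genes, called 35 higher and 1 lower. At an unadjusted p under 0.05 the count was also 0 of 10, where 8.16% of all genes lay under it, 4.22% higher and 3.94% lower. DESeq2 and limma-voom called 0 of the 10 as well. The C1q libraries did not all lie above the saline libraries for any of the 10 (8.12% of all genes did), and did not all lie below them for any (5.96%). The median log2 fold change was -0.11, beside -0.01 over all genes tested, with 8 of 10 negative and 2 of 10 positive, beside 51.8% and 48.2% of all genes.

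The data also bound the changes. The 95% interval of the fold change stayed within 1.5-fold either way for 6 of 10 genes, beside 32% of all genes tested. These intervals come from edgeR, cover 1 gene at a time and assume that the spread is shared as the fit estimates it. The highest upper bound was 1.41-fold, for Psmb8, and the lowest lower bound 0.561-fold, for H2-Q7.

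**Figure D1:**
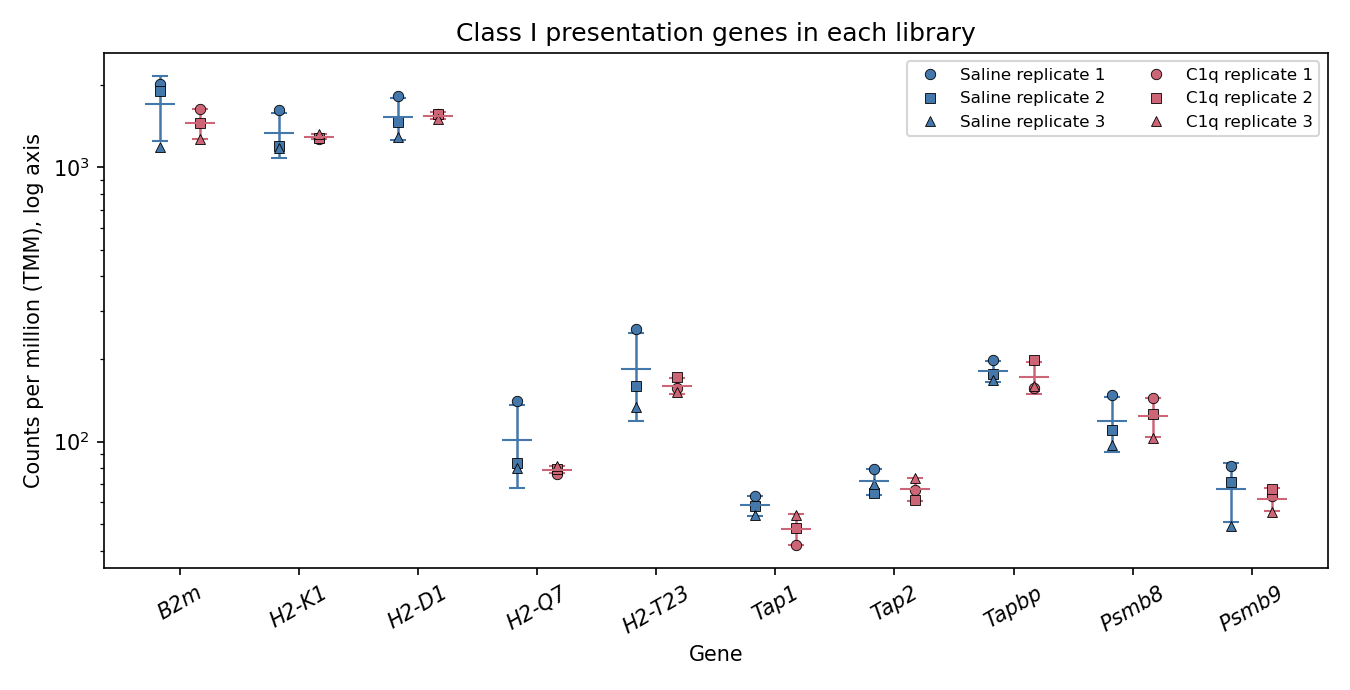
Level of each of the 10 genes in every library, in CPM scaled by TMM on a log axis, with group mean and SD (n = 3 each). Saline is blue and C1q red, marker shapes give the replicate, and the groups overlap for every gene, with saline replicate 1 (blue circle) often at the top.

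B2m encodes beta-2-microglobulin, the light chain that every class I heavy chain needs to reach the cell surface. It stood at 2012, 1890 and 1181 CPM (counts scaled to a common library size, with TMM factors) in saline replicates 1 to 3 and at 1634, 1455 and 1271 CPM in C1q replicates 1 to 3. The C1q values all lay inside the wide saline range. Group means were 1694 ± 448 and 1453 ± 182 CPM (SD, n = 3 each), a log2 fold change of -0.22 ± 0.21 (SE) with an edgeR adjusted p = 0.776. Its 95% interval ran from 0.619-fold to 1.19-fold. The log2 fold change was -0.08 without saline replicate 1 and -0.42 without saline replicate 3.

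H2-K1 and H2-D1 encode the classical heavy chains of this strain, the main peptide presenters to CD8 T cells. H2-K1 was at 1618, 1196 and 1177 CPM in saline and at 1271, 1279 and 1326 CPM in C1q. H2-D1 was at 1812, 1467 and 1284 CPM in saline and at 1568, 1563 and 1493 CPM in C1q. In both genes the 3 C1q libraries were close together and lay within the saline range. The log2 fold change was -0.04 ± 0.17 for H2-K1 (edgeR adjusted p = 0.959) and 0.02 ± 0.17 for H2-D1 (edgeR adjusted p = 0.984). The 95% interval was 0.749-fold to 1.26-fold for H2-K1 and 0.783-fold to 1.31-fold for H2-D1.

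H2-Q7 and H2-T23 encode the non-classical heavy chains Qa-2 and Qa-1. Qa-1 presents a leader peptide to the CD94/NKG2A receptor of natural killer cells. H2-Q7 was at 140 CPM in saline replicate 1 and at 83.8 and 79.9 CPM in the other saline libraries, and at 76.3, 79.4 and 81.3 CPM in C1q. H2-T23 was at 257 CPM in saline replicate 1, at 159 and 134 CPM in saline replicates 2 and 3, and at 156, 171 and 151 CPM in C1q. For both genes saline replicate 1 stood above the other 5 libraries, and the remaining saline values overlapped the C1q values. The log2 fold change was -0.36 ± 0.21 for H2-Q7 (edgeR adjusted p = 0.647) and -0.05 without saline replicate 1. For H2-T23 it was -0.20 ± 0.22 (edgeR adjusted p = 0.806) and 0.12 without that library.

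H2-Q7 has close relatives, and the sources used here do not state how reads that fit several genes were assigned. Of the distinct 50-base windows in GENCODE M21 transcripts of H2-Q7, 26.5% also occur in transcripts of another gene, and 34.7% of those in the first 200 bases do. For H2-K1 the share was 9.63%, for H2-D1 12.8%, for H2-T23 14.5% and for B2m 0%. Tapbp had 23.2% overall and 37.7% in the first 200 bases, the latter above the share counted for H2-Q7. H2-Q9, a relative of H2-Q7, was not found by name in those transcripts. Sequence shared with H2-Q9 may therefore be missed, and the share for H2-Q7 may be too low. Counts of H2-Q7, of its neighbours in the Q region and of Tapbp are therefore uncertain as single genes.

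Tap1 and Tap2 encode the subunits of the peptide transporter, and Tapbp encodes tapasin, which bridges it to empty class I molecules. Tap1 was at 63.3, 58.3 and 53.8 CPM in saline and at 42.0, 48.3 and 54.2 CPM in C1q, so that 2 of 3 C1q libraries lay below all saline libraries. Its log2 fold change of -0.29 ± 0.16 had the smallest p among the 10 genes and did not pass (edgeR adjusted p = 0.635), with a 95% interval of 0.644-fold to 1.04-fold. Tap2 was at 79.7, 64.8 and 70.2 CPM in saline and at 66.6, 61.0 and 73.6 CPM in C1q (log2 fold change -0.10 ± 0.15, edgeR adjusted p = 0.877). The Tap2 groups overlapped in part, with saline replicate 1 above all C1q libraries and C1q replicate 2 below all saline libraries. Tapbp was at 198, 176 and 168 CPM in saline and at 157, 199 and 160 CPM in C1q. Tapbp's log2 fold change was -0.07 ± 0.16 (edgeR adjusted p = 0.915), and C1q replicate 2 was the highest of its 6 libraries. All 3 saline libraries lay between the extremes of the C1q group for this gene.

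Psmb8 and Psmb9 encode the inducible catalytic subunits LMP7 and LMP2, which replace Psmb5 and Psmb6 in the immunoproteasome. Psmb8 was at 148, 110 and 97.1 CPM in saline and at 144, 126 and 103 CPM in C1q, with a log2 fold change of 0.07 ± 0.19 (edgeR adjusted p = 0.934). Psmb9 was at 81.3, 71.2 and 49.3 CPM in saline and at 63.1, 67.0 and 55.5 CPM in C1q, with a log2 fold change of -0.12 ± 0.19 (edgeR adjusted p = 0.878). The C1q libraries of both genes lay within the saline range. Psmb10, the third inducible subunit, encoded outside the MHC on chromosome 8, gave 137, 101 and 75.1 CPM in saline replicates 1 to 3 and 124, 95.2 and 80.4 CPM in the C1q libraries. Its groups overlapped, with a log2 fold change of -0.06 ± 0.23 (edgeR adjusted p = 0.956).

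The balance of inducible to constitutive subunits was compared within each library, where scaling plays no part. The log2 ratio of Psmb8 to Psmb5 counts was -0.19, -0.40 and -0.16 in saline and -0.34, -0.37 and -0.36 in C1q. It differed by -0.11 between the group means (exact permutation test, two-sided, p = 0.4). The C1q ratios lay close together, inside the saline range. For Psmb9 to Psmb6 the difference was -0.11 (exact permutation p = 0.6), and for Psmb10 to Psmb7 it was -0.20 (exact permutation p = 0.2). Adjusted over the 3 pairs p was 0.6 for each, and 3 libraries against 3 cannot give less than 0.1. Psmb5, Psmb6 and Psmb7 themselves had log2 fold changes of 0.18 ± 0.19, 0.00017 ± 0.21 and 0.14 ± 0.19.

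**Figure D2:**
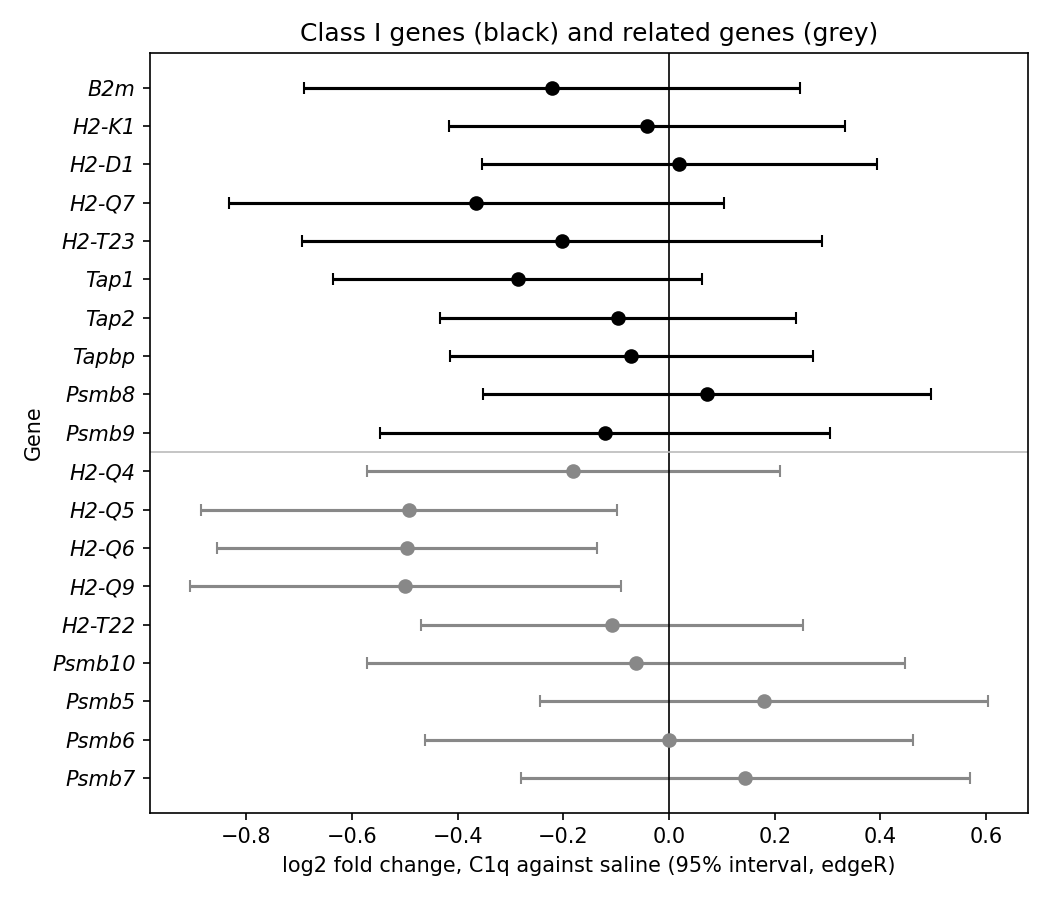
The log2 fold change of C1q against saline with its 95% interval from edgeR, for the 10 genes (black) and for related heavy chain and proteasome genes (grey). All 10 black intervals cross 0, while those of H2-Q5, H2-Q6 and H2-Q9 lie below it before adjustment for the number of genes.

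The saline libraries were further apart than the C1q libraries for most of these genes. Saline replicate 1 had the highest level of the 6 libraries for 9 of the 10 genes, the exception being Tapbp, where over all genes tested it was the highest for 10.0%. Saline replicate 3 was the lowest for 6 of 10, beside 23.6% of all genes. The coefficient of variation was larger in saline than in C1q for 8 of 10 genes, beside 58.4% of all genes tested, with medians of 20.6% and 9.41%, beside 18.1% and 15.7% over all genes. This pattern was noticed in the values and has no test.

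Summed over the 10 genes, levels were 6409, 5276 and 4295 CPM in saline and 5178, 5049 and 4769 CPM in C1q. The C1q libraries spanned a narrower range, inside that of the saline group. Other lists were high in saline replicate 1 as well. The 10 tested further class I heavy chain genes had saline replicate 1 highest in 8 cases, and the 14 tested interferon-gamma targets outside the class I pathway in 10. Among 12 lists of cell type markers, 5 were highest in saline replicate 1, those of natural killer cells, T cells, B cells, endothelium, and red cells and platelets. Natural killer cell markers summed to 179, 111 and 84.0 CPM in saline and to 165, 68.1 and 92.1 CPM in C1q, with 7 of 8 markers tested and none of the 8 at 0. Endothelial markers summed to 4116, 3827 and 3580 CPM in saline and to 3269, 3820 and 3059 CPM in C1q, with all 8 tested. Red cell and platelet markers summed to 290, 138 and 154 CPM in saline and to 203, 95.6 and 52.4 CPM in C1q, with 6 of 8 tested. T cell markers ran from 86.7 to 119 CPM in saline and 80.4 to 110 CPM in C1q, and B cell markers from 249 to 340 CPM and 208 to 339 CPM. No gene of these lists found in the table was at 0 throughout, and the part of these cells in the class I levels was not tested.

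**Figure D3:**
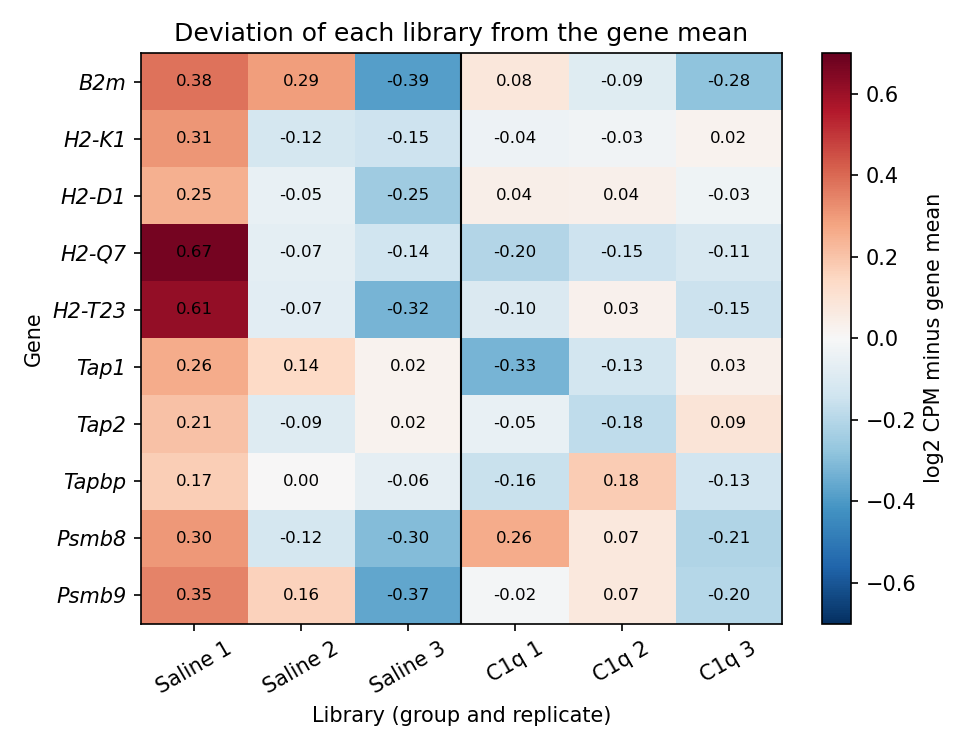
Deviation of each library from the mean over the 6 libraries, in log2 CPM with a prior count of 2, for each of the 10 genes (red above, blue below the gene's mean). Saline replicate 1 is above the mean for all 10 genes, with 0.67 for H2-Q7, and the C1q columns are paler.

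Similarity between the genes across libraries was described by correlation. Over the 6 libraries 43 of the 45 pairs among the 10 genes had a positive Pearson correlation of log2 CPM, with a median r of 0.65. The highest was 0.94, between B2m and Psmb9, and the lowest -0.18, between Tap1 and Psmb8. Without saline replicate 1 the median was 0.14 and 27 of 45 pairs were positive, so the pattern rests on that library. Points share the library, its depth and its scaling. Of 7726 other genes with a mean of at least 20 CPM, the 5 whose pattern was most like the average of the 10 were Cstf2t (r = 0.996 over 6 libraries), the class I heavy chain gene H2-T22 (0.984), Samhd1 (0.982), which encodes a dNTP hydrolase with antiviral activity, Anp32e (0.972) and the interferon-inducible GTPase gene Igtp (0.957). For H2-T22 53.5% of 50-base windows occur in another gene's transcripts, so its count is uncertain as a single gene. Without saline replicate 1 and saline replicate 3, the libraries farthest from the median, r over the other 4 was 0.983 for Cstf2t, 0.811 for Anp32e, 0.739 for Samhd1, 0.368 for H2-T22 and -0.252 for Igtp. Those 4 libraries were among the 6 used to pick the 5 genes from 7726, so high values there are no separate support for a likeness.

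Leaving out single libraries moved the values, and no gene passed. Without saline replicate 1, 6 of 10 genes had a positive log2 fold change and the median was 0.02. Without saline replicate 3 all 10 were negative and the median was -0.21, with H2-Q7 at -0.51. In each of these fits 0 of 10 passed the edgeR test. H2-K1, H2-T23, Tapbp and Psmb9 changed sign without saline replicate 1, and H2-D1 and Psmb8 without saline replicate 3, H2-D1 also without saline replicate 2 and Psmb8 also without C1q replicate 1. With library size as the only scaling, H2-D1 was at -0.02, and 9 of 10 were negative.

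**Figure D4:**
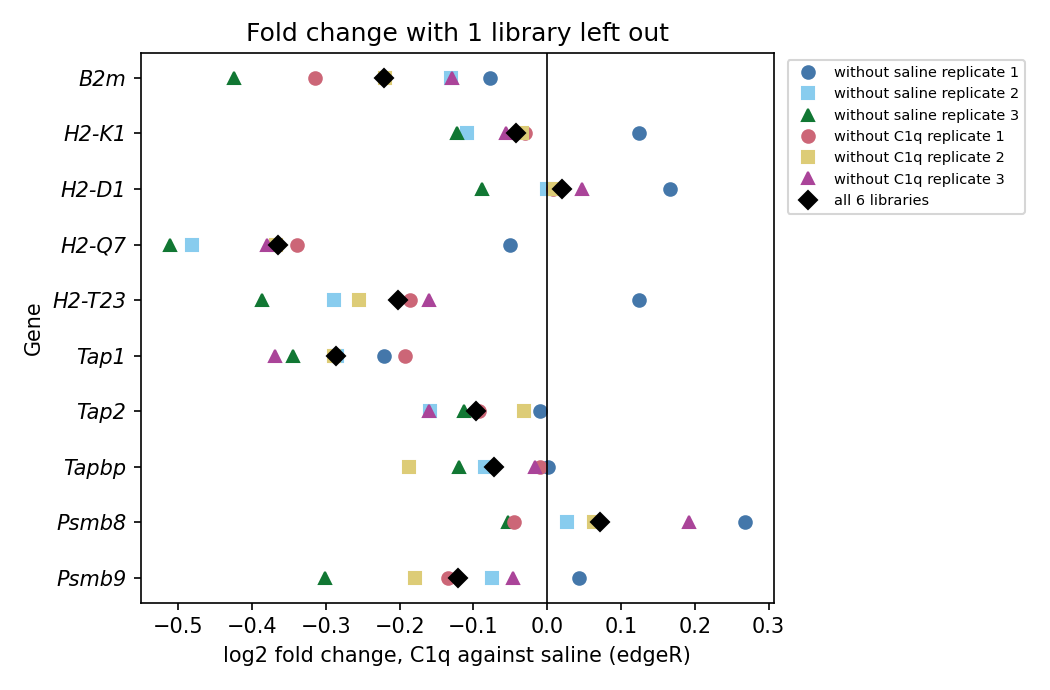
The log2 fold change of C1q against saline for each of the 10 genes, from edgeR with all 6 libraries (black diamond) and with 1 library left out (coloured). Blue circles, without saline replicate 1, lie to the right for most genes, and green triangles, without saline replicate 3, to the left, with values from -0.51 to 0.27 in all.

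Among the remaining heavy chain genes, H2-Q5, H2-Q6 and H2-Q9 of the Q region had C1q levels below all saline levels. Of 20 listed, 15 were in the table, 10 were tested and 0 passed (3 at an unadjusted p under 0.05), with 9 of 10 negative and a median log2 fold change of -0.26. Over all genes tested 8.16% lay under that p and 51.8% were negative. In 4 of the 10, these and H2-M3, all C1q libraries lay below all saline libraries, where 5.96% of all genes did. The other tested Q genes overlapped. Their log2 fold changes were -0.34 ± 0.18 for H2-Q1, -0.18 ± 0.18 for H2-Q4 and, in the other direction, 0.62 ± 0.39 for H2-Q2, on levels of 2.99 to 11.1 CPM. H2-Q6 was at 150, 108 and 127 CPM in saline and at 85.5, 89.2 and 99.3 CPM in C1q (log2 fold change -0.50 ± 0.16, edgeR adjusted p = 0.534). H2-Q5, annotated as a polymorphic pseudogene, was at 60.1, 40.1 and 52.7 CPM in saline and at 36.2, 34.9 and 37.9 CPM in C1q (log2 fold change -0.49 ± 0.18, edgeR adjusted p = 0.580). H2-Q9 was at 128, 95.1 and 79.9 CPM in saline and at 66.1, 73.7 and 74.9 CPM in C1q (log2 fold change -0.50 ± 0.18, edgeR adjusted p = 0.598). These genes are relatives of H2-Q7 in the Q region. For H2-Q6 35% of 50-base windows occur in another gene's transcripts, and for H2-Q5 36.4%, so their counts are uncertain as single genes. Without saline replicate 1 the log2 fold changes were -0.36 for H2-Q6, -0.35 for H2-Q5 and -0.29 for H2-Q9.

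Genes that act before and after peptide loading were likewise without a call. Beside the counts in this and the following lists, 8.16% of all genes tested had an unadjusted p under 0.05. Over all genes tested 51.8% had a negative log2 fold change and 48.2% a positive one. The class I-like molecules, relatives that do not present ordinary peptides, had 6 tested and 0 passed (0 at an unadjusted p under 0.05), with Fcgrt, the neonatal Fc receptor, at 0.24 ± 0.24, the lipid-presenting Cd1d1 at -0.20 ± 0.20 and Procr, the protein C receptor, at 0.27 ± 0.33 in log2 fold change. With 1 library left out these ranged from 0.01 to 0.52, from -0.33 to -0.02 and from 0.07 to 0.47. Of 9 loading and folding genes 0 passed (1 at an unadjusted p under 0.05), 8 were positive, and the median log2 fold change was 0.12. The protein disulfide isomerase gene P4hb gave 310, 339 and 280 CPM in the saline libraries and 433, 390 and 394 CPM in the C1q libraries, without overlap (log2 fold change 0.39 ± 0.15, edgeR adjusted p = 0.598). P4hb was named for its small p, and 8.12% of all genes tested had all C1q libraries above saline. Pdia3, a part of the loading complex, was at 0.23 ± 0.15 and the chaperone gene Hspa5 at 0.18 ± 0.15. Of 7 tested peptide-trimming enzymes 0 passed (1 at an unadjusted p under 0.05) and 5 were positive. Lap3, an interferon-inducible leucine aminopeptidase, was at 31.8, 31.6 and 24.7 CPM in saline and at 45.6, 48.7 and 43.8 CPM in C1q (log2 fold change 0.65 ± 0.17, edgeR adjusted p = 0.410). All C1q libraries lay above all saline libraries for Lap3, as for 8.12% of all genes tested, and Lap3 was named for its small p. Erap1, which trims peptides in the endoplasmic reticulum, had a log2 fold change of 0.20 ± 0.18 and Lnpep of 0.21 ± 0.18.

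The other proteasome genes had mostly positive log2 fold changes, and none passed. Of 11 other core subunits 8 were positive (median log2 fold change 0.08), of 18 regulatory particle subunits 14 (median 0.14), and 0 passed in either list (0 and 2 at an unadjusted p under 0.05). Psmd13 was at 0.37 ± 0.15, Psmc6 at 0.34 ± 0.15 and Psmd6 at 0.36 ± 0.18 among the regulatory particle genes, and Psma4 at 0.33 ± 0.18, Psma1 at 0.29 ± 0.16 and Psmb3 at -0.30 ± 0.21 among the core genes. The genes of the interferon-induced activator PA28, Psme1 and Psme2, had log2 fold changes of 0.11 ± 0.23 and 0.07 ± 0.17. Among 10 ubiquitously expressed reference genes 8 were positive with a median of 0.11.

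**Figure D5:**
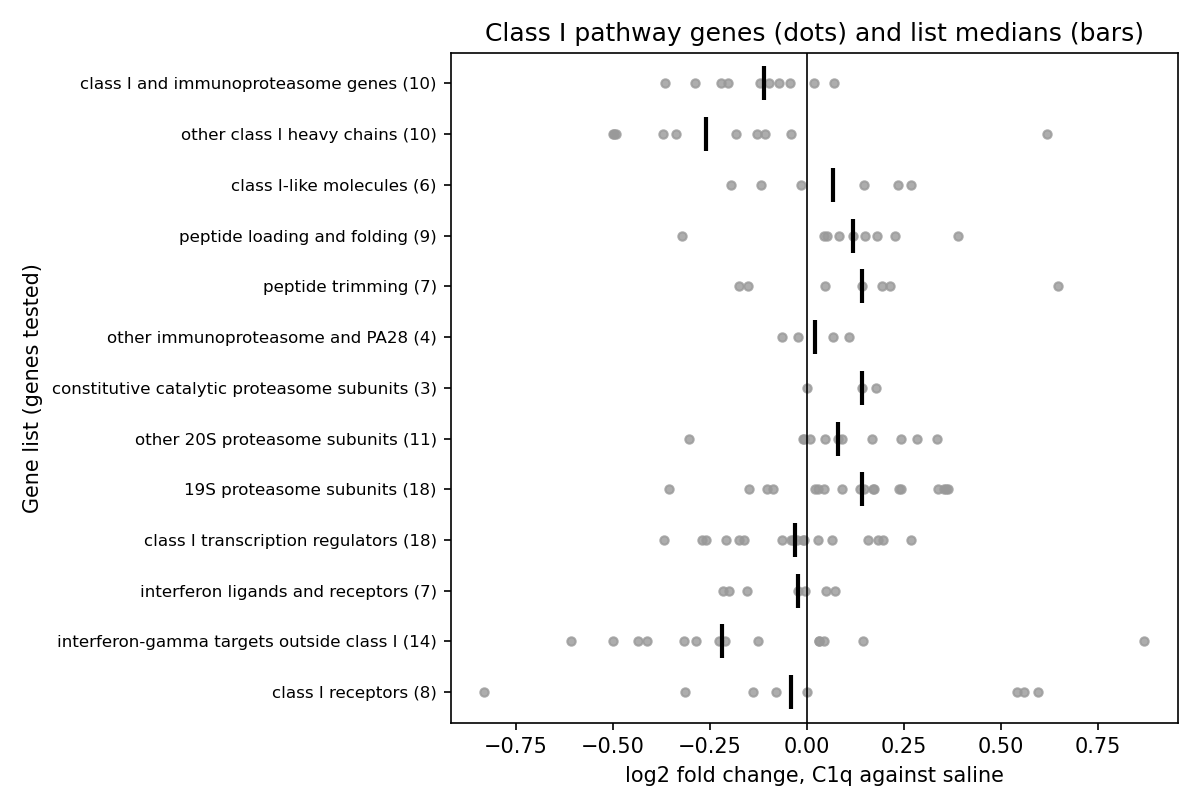
The log2 fold change of C1q against saline for every tested gene of the class I pathway lists (grey dots), with the median of each list (black bar) and the number tested in brackets. No gene shown passed the test over all genes, and the medians lie between -0.26 and 0.14.

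Regulators of class I transcription were also without a call. Of 18 tested 0 passed (0 at an unadjusted p under 0.05), 12 were negative, and the median log2 fold change was -0.03. Nlrc5, the class I transactivator, was low throughout, at 8.68, 10.1 and 16.1 CPM in saline and at 16.6, 6.35 and 4.97 CPM in C1q (log2 fold change -0.26 ± 0.44, edgeR adjusted p = 0.885). Its 95% interval ran from -1.23 to 0.71 on the log2 scale, and without C1q replicate 1, the highest library, the value was -1.02. Nfkb1 had a log2 fold change of 0.27 ± 0.17 and Rfxank of -0.27 ± 0.25.

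Interferon receptors and targets gave mixed values. Of 7 tested ligand, receptor and kinase genes 0 passed (0 at an unadjusted p under 0.05), with Ifnar1 at -0.20 ± 0.16, Tyk2 at -0.21 ± 0.21 and Ifngr2 at -0.15 ± 0.17. Of 14 tested interferon-gamma targets outside class I 0 passed (3 at an unadjusted p under 0.05, beside 8.16% of all genes). Among these targets 9 were negative, beside 51.8% of all genes, and the median log2 fold change was -0.22. The chemokine gene Cxcl10 was at 44.0, 21.1 and 41.5 CPM in saline and at 67.2, 50.4 and 79.0 CPM in C1q (log2 fold change 0.87 ± 0.26, edgeR adjusted p = 0.512). The PD-L1 gene Cd274 was on the other side, at -0.44 ± 0.19, as was the guanylate-binding protein gene Gbp4, at -0.61 ± 0.27 and at -0.30 without saline replicate 1. The Cxcl10 and Cd274 groups did not overlap, in opposite directions, and those of Gbp4 did. Over all genes tested the C1q libraries lay wholly above saline for 8.12% and wholly below for 5.96%. Cxcl10, Cd274 and Gbp4 were named for their small p.

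Receptors of class I molecules and related receptors were without a call. Of 15 listed, 8 were tested and 0 passed (1 at an unadjusted p under 0.05). That gene was Lilrb4a, an inhibitory receptor gene listed here without a claim that its product binds class I. Lilrb4a was at 69.1, 72.9 and 68.0 CPM in saline and at 118, 95.2 and 104 CPM in C1q (log2 fold change 0.60 ± 0.15, edgeR adjusted p = 0.383). Pirb, an inhibitory receptor of myeloid and B cells that binds class I, was at 0.54 ± 0.28, and at 0.26 without saline replicate 3. Pirb was at 18.3, 20.2 and 8.96 CPM in saline and at 20.7, 26.1 and 22.6 CPM in C1q. All C1q libraries thus lay above saline, as for 8.12% of all genes tested, but only narrowly. Before TMM scaling 1 count was 0.274 to 0.449 CPM. Cd8b1, a chain of the CD8 co-receptor, had a log2 fold change of -0.83 ± 0.49 on levels of 2.12 to 8.50 CPM, and of -0.43 without saline replicate 2.

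Depth and composition set the precision. Total counts were 2227619 to 3650793 per library, and 1 gene, LOC118568312, took 7.38% to 13.1% of them. Counts of the 10 genes ran from 120 to 6259 per library. The alveolar epithelial markers, led by the surfactant genes, summed to 24638 to 46058 CPM in saline and 32719 to 35443 CPM in C1q, so the defining markers of the labelled tissue were present in every library. Alveolar macrophage markers summed to 1171 to 2766 CPM in saline and 2807 to 3462 CPM in C1q. Chil3 alone gave 749 to 2030 CPM and 2317 to 2783 CPM of these sums. The sums of the other 7 markers overlapped, at 422 to 736 CPM in saline and 491 to 693 CPM in C1q. Of these 7, Mrc1 did not overlap, at 78.8, 69.2 and 62.0 CPM in saline and 97.9, 83.2 and 84.4 CPM in C1q. All C1q libraries lay above all saline libraries for 2 of the 8 markers, beside 8.12% of all genes tested. The median log2 fold change of the list was 0.02, and its part in the class I values was not tested.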

How the data were processed

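The deposited table holds counts, whole numbers per gene symbol with no scaling by the authors. Cutadapt 2.1.0 and Bowtie2 2.4.2 were used with GRCm38, per the submitters' processing notes. The sources used here do not give the counting step, strand use or treatment of reads that fit several genes.

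Genes kept by filterByExpr (13473) received TMM factors and entered edgeR 4.0.16's quasi-likelihood test (two-sided, with treatment alone in the design) with Benjamini-Hochberg adjustment and a threshold of 0.05. SEs and 95% intervals come from the log2 fold change, its F statistic and the total degrees of freedom. The fit was tested on simulated data. DESeq2 1.42.0, limma-voom (limma 3.58.1), other scalings and filters and leaving out each library were alternatives. Chi-square statistics between library pairs, divided by their degrees of freedom, ran from 5.04 to 16.4, so no pair agreed within counting noise as a library deposited in duplicate would. This does not show that libraries are separate animals.

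The genes and lists were chosen with earlier results of these data known. Named beside the 10 genes were the 3 genes with the smallest p in each pathway list, Psmb5, Psmb6, Psmb7, Psmb10, Nlrc5 and the 5 genes of most like pattern. A gene that this rule names is not reported here. The marker lists given in values, and Chil3, Mrc1, H2-M3, H2-Q1, H2-Q2 and H2-Q4, were picked after their values were seen. The NF-kappa-B consensus was adopted after a stricter site had been searched in the same windows, and it matched more of the genes than that site. Upstream sequences are from RefSeq (GRCm38.p6) and positions from GENCODE M21 (GRCm38).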

Additional observations from a re-analysis of the deposited data

How the results depend on the processing

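Under all 13 alternatives 0 of the 10 class I genes passed, and the median of their log2 fold changes stayed between -0.21 and 0.02, its highest value being without saline replicate 1. The count over all genes was 4, but 373 with no filter on low counts and 36 with DESeq2, and 0 to 10 with 1 library left out (0 when saline replicate 1 was left out, 10 for saline replicate 3, and 1 and 2 for C1q replicates 1 and 2). With no filter 1 interferon-gamma target, Cxcl10, passed. Causes were not tested.

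Of 130 single values of the 10 genes, 9 changed sign, none of them past the threshold. With library size only H2-D1 was at -0.0223. With 1 library left out the ranges were -0.123 to 0.124 for H2-K1, -0.0885 to 0.166 for H2-D1, -0.386 to 0.125 for H2-T23, -0.187 to 0.00124 for Tapbp, -0.0526 to 0.268 for Psmb8 and -0.301 to 0.0430 for Psmb9. The same ranges were -0.251 to 0.189 for Psmb10, -0.180 to 0.186 for Psmb6, -0.164 to 0.261 for Psme1, -0.0721 to 0.163 for Psme2, -1.02 to 0.0610 for Nlrc5, -0.347 to 0.0300 for Cstf2t, -0.211 to 0.0569 for H2-T22, -0.111 to 0.00692 for Samhd1, -0.108 to 0.0283 for Anp32e and -0.369 to 0.0320 for Igtp. With 1 library left out, 9 of the 10 class I genes (all but Tap1) moved by over 1.5 times or changed sign. So did 32 of the 42 other genes named by the rule given above. Among those that kept their sign, B2m ranged from -0.424 to -0.0776, H2-Q7 from -0.512 to -0.0507, Tap2 from -0.160 to -0.00932, Psmb5 from 0.0229 to 0.334, Psmb7 from 0.00634 to 0.325, H2-Q9 from -0.643 to -0.290, Lnpep from 0.0714 to 0.327, Erap1 from 0.108 to 0.374, Psmb3 from -0.499 to -0.108, Rfxank from -0.427 to -0.0768 and Ifngr2 from -0.280 to -0.0501. Psmb6 was at -0.00718 with RLE size factors, -0.0279 with library size only, -0.00349 with upper-quartile scaling and -0.0154 with the stricter filter. No paired analysis was possible because the replicate numbers follow the order of deposition and the labels give no shared animal, litter or batch.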
